A study of Tupaia belangeri with 6 samples.

Results

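Voltage-gated calcium channels open when the membrane is depolarised and let calcium into the cell. Each channel is built around 1 large pore-forming α1 subunit, which sets the type of current. In channels of the P/Q, N, L and R types, auxiliary β and α2δ subunits bind the pore and shape how much channel reaches the surface and how it gates. T-type pores can form working channels without them. In cortical neurons, P/Q-type and N-type channels are known for triggering transmitter release at presynaptic terminals. L-type channels couple activity to gene expression, R-type channels carry calcium into dendrites and spines, and T-type channels open at low voltage and drive burst firing.

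The levels of 10 genes of this family were examined in the prefrontal cortex (PFC) of the tree shrew, Tupaia belangeri. The members were the rows of the gene abundance tables that carry their symbols, without the copies whose symbols end in "li" and a number. All 10 were present, none was absent, and each was a single row with 1 gene ID, out of 95863 loci in all. Of these members, 8 encode pore-forming subunits and 2, CACNA2D1 and CACNB4, encode auxiliary subunits.

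Polyadenylated RNA was measured in 6 adult animals, 3 females (numbered 1, 3 and 4) and 3 males (numbered 1, 4 and 5), with 1 library for each animal. None of the animals is labelled with a treatment or a genetic change. The study's sample overview gives the 3 males an older age than the 3 females, so sex and age cannot be told apart here. The tissue is a piece of cortex with all its cell types, and fewer cells of a type cannot be told apart from less RNA per cell. Levels are given as TPM, the share of transcripts in a library after correction for transcript length. The tables hold no read counts, so no counting interval was computed. The depth behind a value is given as the listed coverage, a mean read depth that is not taken over the whole span of a gene.

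In 3 measured excitatory neuron markers, the summed level was 1348 to 1777 TPM across the females and 1201 to 1887 TPM across the males. The 6 inhibitory neuron markers summed to 1227 to 1320 TPM and 1083 to 1328 TPM. The 5 astrocyte markers summed to 1404 to 2079 TPM across the females and 1432 to 2184 TPM across the males. Microglia markers (6 genes) summed to 220.0 to 236 TPM and 162 to 304 TPM, and endothelial markers (4 genes) to 352 to 420.5 TPM and 311 to 468 TPM. The sum of the 3 measured oligodendrocyte markers, MBP, MOG and MAG, was higher in every female, at 348 to 482 TPM, than in every male, at 80.7 to 236 TPM. Markers of choroid plexus (3 measured genes, 3.23 to 12 TPM), of striatum (2 measured genes, 23.8 to 75.0 TPM), of thalamus (5 genes, 39.8 to 75.8 TPM) and of cerebellum (4 genes, 118 to 232 TPM) were also measured, with GBX2 and PCP2 under 1 TPM on average. The cerebellum sum, over PCP2, CALB1, CBLN1 and GABRA6, was above the oligodendrocyte sum in male 4 and male 5, and above the microglia sum in male 5. PCP2 added little to it, and whether the other genes mark cerebellar tissue here was not tested. Loci to which no strand was assigned held 2.30% to 3.33% of all TPM in the females, 5.16% in male 1, 2.67% in male 4 and 7.88% in male 5.

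Of the pore-forming members, CACNA1H and CACNA1I, which encode T-type channels, had the highest mean levels. CACNA1H, which encodes Cav3.2 (chromosome 2, 82597626 to 82646113, minus strand of the TS_3.0 assembly), was at 56.1, 64.2 and 109 TPM in females 1, 3 and 4. In males 1, 4 and 5 it was at 39.0, 99.8 and 93.7 TPM. Female 4, male 4 and male 5 were high and male 1 was low, and the sexes overlapped. CACNA1I, which encodes Cav3.3 (chromosome 6, 108515047 to 108625349, minus strand), was at 58.9, 80.2 and 57.4 TPM in the females, against 42.5, 90.4 and 68.2 TPM in the males. Male 4 was the highest and male 1 the lowest. CACNA1G, which encodes Cav3.1 (chromosome 15, 71639218 to 71709730, plus strand), was at 33.3, 38.2 and 30.1 TPM in the females, against 25.6, 56.0 and 48.4 TPM in the males. Again male 4 was the highest and male 1 the lowest, and the sexes overlapped.

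Within the T-type sum, CACNA1H was above CACNA1I in 3 of 6 libraries by TPM, with a ratio from 0.801 to 1.90, and in 0 of 6 by coverage. CACNA1H and CACNA1I were each above CACNA1G in 6 of 6 libraries, with ratios of 1.52 to 3.61 and 1.41 to 2.10. CACNA1H made up 41.7% ± 7.53 (SD, n = 6) of T-type TPM, CACNA1I 36.9% ± 5.36 and CACNA1G 21.4% ± 3.13. In female 4 the CACNA1H portion was 55.4%, the highest of the 6 libraries.

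CACNA1A, the P/Q-type pore Cav2.1 (chromosome 27, 4317219 to 4689451, plus strand), was at 48.6, 63.9 and 58.5 TPM in the females, against 31.2, 72.3 and 53.9 TPM in the males. CACNA1B, the N-type pore Cav2.2 (chromosome 2, 95803100 to 95993784, plus strand), was at 41.1, 45.7 and 36.0 TPM in the females, against 36.1, 44.3 and 58.0 TPM in the males. For these presynaptic channels the sexes overlapped, and CACNA1B had the smallest coefficient of variation of the 10 members, 18.8%. CACNA1A was above CACNA1B in 4 of 6 libraries by TPM, with a ratio from 0.864 to 1.63, and in 0 of 6 by coverage.

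CACNA1E, the R-type pore Cav2.3 (chromosome 16, 23171019 to 23772429, plus strand), was at 36.6, 49.8 and 27.2 TPM in the females, against 36.2, 29.9 and 42.1 TPM in the males. Female 3 was the highest and female 4 the lowest, so both ends of the range lay among the females.

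The L-type pores had the lowest levels of the 10 members. CACNA1D, which encodes Cav1.3 (chromosome 23, 26914693 to 27341211, plus strand), was at 16.2, 17.5 and 9.68 TPM in the females, against 9.22, 27.4 and 17.4 TPM in the males. Male 4 stood above the other libraries, and male 1 and female 4 were low. CACNA1C, which encodes Cav1.2 (chromosome 6, 40404334 to 41174952, plus strand), was at 15.4, 17.9 and 8.34 TPM in the females, against 10.4, 17.1 and 15.6 TPM in the males. Here too female 4 and male 1 were the lowest. CACNA1D was above CACNA1C in 4 of 6 libraries by TPM, with a ratio from 0.889 to 1.60, and in 6 of 6 by coverage.

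Both auxiliary members lay near the upper pore-forming genes. CACNA2D1, whose α2δ-1 product is a binding site of gabapentin (chromosome 5, 86847610 to 87484751, minus strand), was at 46.6, 70.9 and 38.7 TPM in the females, against 61.1, 53.4 and 86.0 TPM in the males. CACNB4, which encodes the β4 subunit (chromosome 1, 133396685 to 133712305, minus strand), was at 52.2, 70.4 and 73.0 TPM in the females, against 44.5, 48.5 and 95.9 TPM in the males. Male 5 was the highest for both genes. Relative to the summed pore-forming TPM of the same library, T type included, CACNB4 was 11.1% to 24.1% and CACNA2D1 was 11.5% to 26.5%. Both ratios were low in male 4, where CACNB4 had its lowest ratio.

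**Figure D1:**
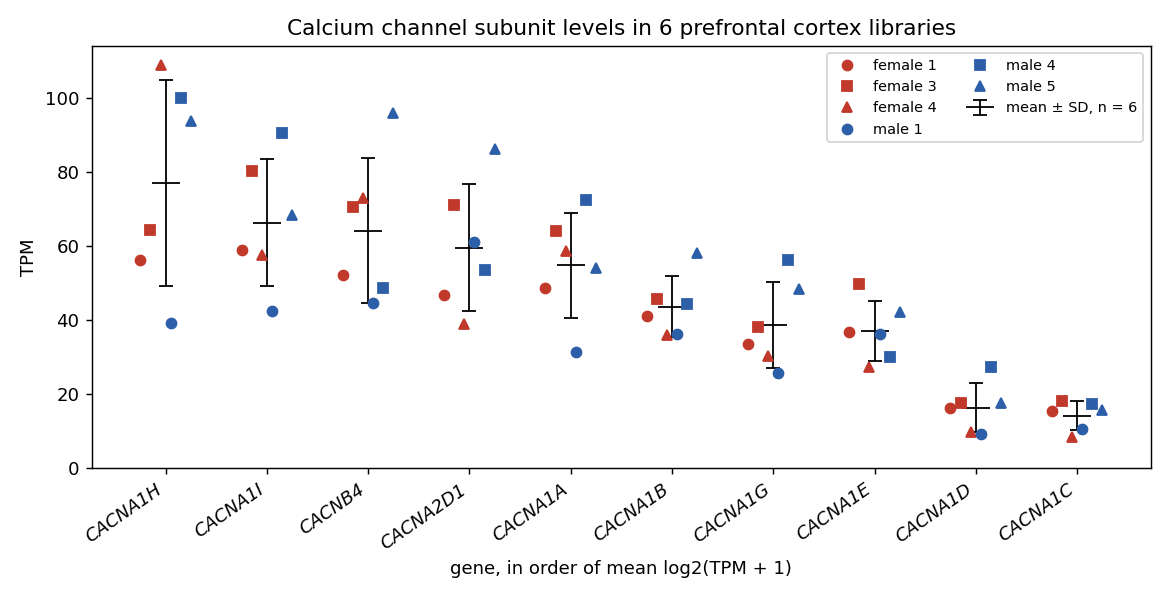
TPM of each of the 10 subunit genes (vertical axis) in the 6 libraries, with the genes along the horizontal axis in order of mean log2(TPM + 1). Points are single libraries, red for females and blue for males, and black bars are the mean ± SD (n = 6). CACNA1H is highest and CACNA1D and CACNA1C are lowest, and the red and blue points of every gene overlap.

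The order of the 10 genes by mean log2(TPM + 1) was CACNA1H, CACNA1I, CACNB4, CACNA2D1, CACNA1A, CACNA1B, CACNA1G, CACNA1E, CACNA1D and CACNA1C. Their mean levels were 77.0 ± 27.8 TPM (SD, n = 6) for CACNA1H, 66.2 ± 17.2 for CACNA1I, 64.1 ± 19.5 for CACNB4, 59.5 ± 17.2 for CACNA2D1 and 54.7 ± 14.1 for CACNA1A. The means of the other 5 members were 43.5 ± 8.17 TPM for CACNA1B, 38.6 ± 11.6 for CACNA1G, 37.0 ± 8.20 for CACNA1E, 16.2 ± 6.62 for CACNA1D and 14.1 ± 3.86 for CACNA1C. Among 12782 tested genes with a symbol and a strand, CACNA1H stood at percentile 84.8 of mean TPM and CACNA1C at percentile 49.9, and the other 8 members lay between them.

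None of the 9 comparisons between neighbours in this order passed the test after adjustment, and the ranges of the neighbours overlapped in all 9. CACNA1E was above CACNA1D in 6 of 6 libraries, by 1.2 ± 0.58 (SD) on the log2(TPM + 1) scale, with an exact sign-flip permutation p of 0.03125. That is the smallest p that 6 libraries allow, and its adjusted value over the 9 comparisons was 0.281 (exact permutation test), so that 1 comparison alone could not reach 0.05. For the other 8 neighbours the order held in 3 to 5 of 6 libraries, with exact permutation p-values from 0.156 to 0.844. Of the 28 possible combinations of 2 pore-forming genes, 20 had the same gene higher in all 6 libraries.

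Summed by current type, the T-type genes held the largest part of pore-forming TPM. The T-type sum reached 148, 183 and 196 TPM in females 1, 3 and 4, against 107, 246 and 210.3 TPM in males 1, 4 and 5. As a share of all pore-forming TPM this came to 48.5%, 48.4% and 58.4% for the females, against 46.5%, 56.3% and 52.9% for the males, a mean of 51.8% ± 4.82 (SD, n = 6). The T-type sum holds 3 genes and the other types 1 or 2 genes. P/Q type had a mean share of 15.6% ± 1.69, N type 12.8% ± 2.19, R type 11.1% ± 3.28 and L type 8.67% ± 1.82 (SD, n = 6 for each). The R-type share varied most against its mean, from 6.83% in male 4 to 15.7% in male 1.

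**Figure D2:**
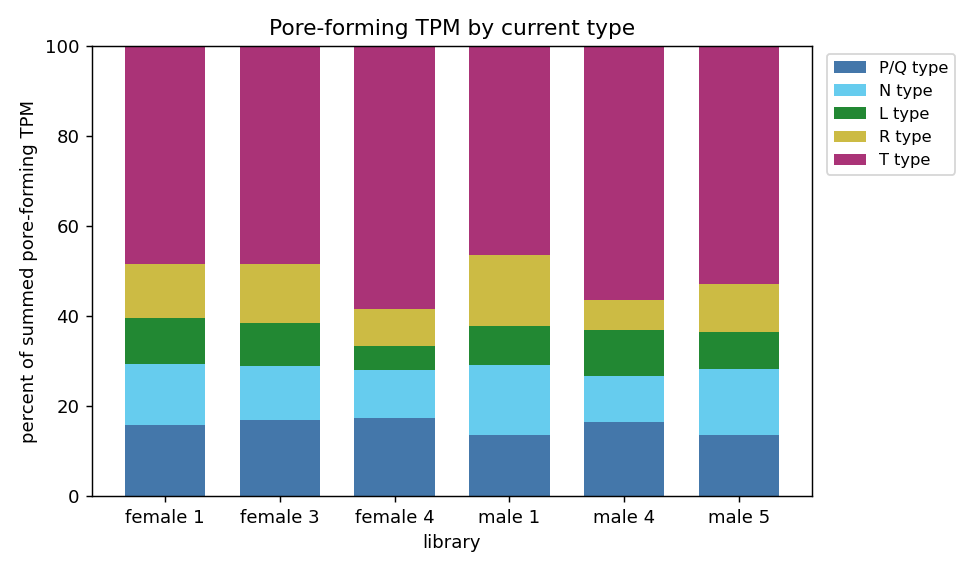
Share of the summed TPM of the 8 pore-forming genes (vertical axis, percent) held by each current type in each of the 6 libraries (horizontal axis). T type holds between 46.5% and 58.4% in every library, and L type between 5.36% and 10.3%.

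The current-type shares of the sexes are described by their values, because the test of 3 animals against 3 could not have called a difference. The P/Q-type share was 16.7% ± 0.789 in females and 14.5% ± 1.71 in males (SD, n = 3 each, exact permutation test, two-sided, p = 0.2), where 3 against 3 cannot go below 0.1. The other 4 types had exact permutation p-values from 0.5 to 1, and adjusted over the 5 types each p was 1. The pore-forming sum itself was 339.9 ± 35.7 TPM in females and 355 ± 109.8 TPM in males (SD, n = 3 each, exact permutation test, p = 0.9).

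These shares rest on TPM, and the listed coverage gave other relations between the members. For loci without strand, TPM divided by coverage was 1 constant within a library. Relative to that constant the ratio was 1.02 for CACNA1I and 1.10 for CACNA1E on average, 1.59 to 2.16 for CACNA1G, CACNB4, CACNA1B, CACNA1H and CACNA2D1, 5.01 for CACNA1D, 8.0 for CACNA1C and 13.4 for CACNA1A. The gene TPM adds up the transcripts of a gene, whereas coverage is a mean depth. For CACNA1I and CACNA1E, which span 110303 and 601411 bp, the ratio was near 1, so that mean is not taken over the whole span. CACNA1A had a coverage of 3.06 to 6.97, against 57.1 to 106 for CACNA1I. By coverage CACNA1E moved from rank 8 to rank 4, CACNA1A from 5 to 8 and CACNA2D1 from 4 to 5, CACNA1H and CACNA1I exchanged ranks 1 and 2, and the other 5 members kept theirs. CACNA1I was above CACNA1H in 6 of 6 libraries by coverage, by 0.71 ± 0.26 (SD) in log2(coverage + 1). CACNA1D was above CACNA1C in 6 of 6 libraries, by 0.63 ± 0.17 on that scale. CACNA1G was above CACNA1A by 2.34 ± 0.17 and CACNA1A above CACNA1D by 0.31 ± 0.17, each in 6 of 6 libraries. These 4 comparisons had the smallest p that 6 libraries allow, 0.03125 by exact sign-flip permutation, and an adjusted p of 0.0703 over the 9 neighbours by coverage. With coverage in place of TPM, the mean T-type share was 65.4%, the R-type share 17.6%, the N-type share 12.3%, the L-type share 2.51% and the P/Q-type share 2.08%. Which of the measures is nearer to the number of channel transcripts was not tested.

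The lowest values of the 10 members came from 2 animals, 1 of each sex. Male 1 was the lowest library for 6 members and female 4 for the other 4. Male 4 was the highest for 4 members, male 5 for 3, female 3 for 2 and female 4 for 1. In male 1, 1 of 10 members lay above its mean over the 6 libraries, and the median member deviated by −0.49 on the log2(TPM + 1) scale. All 12782 tested genes with symbol and strand had a median deviation of −0.069 in that library. In female 4 the median member deviated by −0.27 and the median of those genes by −0.12. In female 3 these were 0.23 and 0.12, and in female 1 they were −0.13 and 0.049. In male 4 the median member deviated by 0.37 and the median of those genes by −0.0035. In male 5 all 10 members lay above their means, with a median deviation of 0.29 against 0.0042 for those genes. The summed TPM of the 10 members ran from 336 in male 1 to 579 in male 5. The same 2 animals had the lowest marker sums for excitatory neurons, 1201 TPM in male 1 and 1348 TPM in female 4, and for astrocytes, 1432 and 1404 TPM. The inhibitory neuron sum was lowest in male 5, at 1083 TPM. The part of these cell types, and of loci without strand, in the low member values was not tested.

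**Figure D3:**
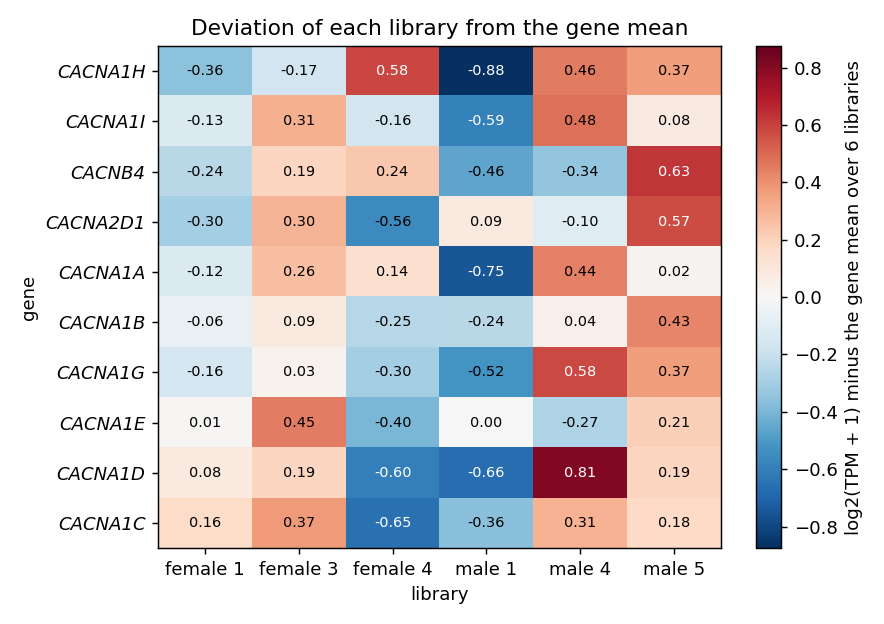
Deviation of each library (columns) from the mean of each gene (rows) over the 6 libraries, in log2(TPM + 1). Blue cells lie below the gene mean and red cells above it. Male 1 is blue for most genes and male 5 is red for all 10, with white cells near 0.

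The coefficient of variation over the 6 libraries ran from 18.8% for CACNA1B to 40.8% for CACNA1D. The median over the 10 members was 28.1%, beside 27.7% for the 12782 tested genes with symbol and strand and 22.0% for the 8620 of them at 5 TPM or more. The highest library exceeded the lowest by 1.61-fold for CACNA1B, 1.83-fold for CACNA1E and 2.13-fold to 2.97-fold for the other 8 members.

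The study compared females with males, and none of the 10 members differed between the sexes by limma with Benjamini-Hochberg adjustment at a threshold of 0.1 (adjusted p from 0.925 to 0.999). Of all 27996 autosomal genes tested, 0.0143% (4 genes) passed that threshold. The study's own test, on read counts and another set of genes, called many more autosomal genes at that threshold. At an unadjusted limma p under 0.05, 0 of 10 members passed, beside 5.04% of autosomal genes. No member had its 3 females wholly above or below its 3 males, beside 9.81% of autosomal genes. With only 10 members, counts of 0 lie near both shares and do not set the members apart. The female minus male difference was positive for 5 members and negative for 5, with a median of −0.032, and the median over all 28740 tested genes was also −0.032. The oligodendrocyte markers, whose sum separated the sexes, are part of the same comparison, and their part in the member values was not tested.

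The largest difference was that of CACNA2D1, the α2δ-1 subunit gene. It was at 52.1 ± 16.8 TPM in females and 66.8 ± 17.0 TPM in males (SD, n = 3 each), a log2 difference of −0.37 (95% interval −0.98 to 0.24). The adjusted p of CACNA2D1 by limma was 0.925. CACNA1G followed, at 33.9 ± 4.04 TPM in females and 43.4 ± 15.8 TPM in males, a log2 difference of −0.28 (95% interval −0.94 to 0.38). CACNA1A had the largest difference in the other direction, 0.19 (95% interval −0.48 to 0.86). CACNA1H, CACNA1I and CACNA1E had differences of 0.033, 0.016 and 0.041, all smaller than their standard errors of 0.38, 0.28 and 0.25.

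The intervals state what these 6 animals could resolve. For CACNA1B, the member with the narrowest interval, the 95% interval of the ratio of female to male TPM + 1, converted from the log2 scale, ran from 0.641 to 1.27. For CACNA1D, the member with the widest interval on the log2 scale, the interval of the ratio ran from 0.459 to 1.61. Differences inside these bounds could not be resolved with 3 animals of each sex.

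**Figure D4:**
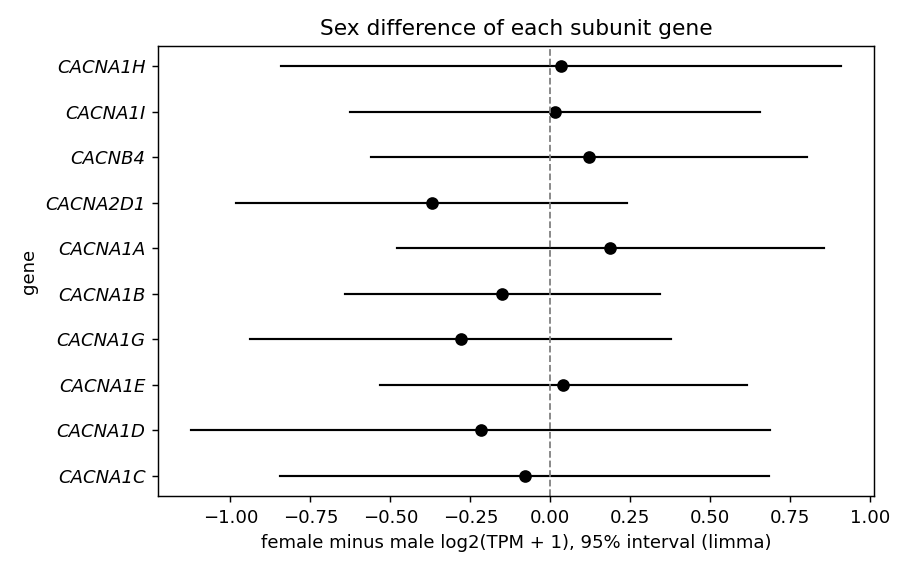
Female minus male difference in log2(TPM + 1) (horizontal axis) for each of the 10 subunit genes (vertical axis). Points are the limma estimates and lines their 95% intervals. Every line crosses 0, and CACNA2D1 at −0.37 lies farthest from it.

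Loci inside the spans of the members differed widely in number. The tables hold 91 further loci that lie wholly within a member's span, 43 of them without strand, 46 on the opposite strand and 2 on the same strand. No such locus lies within CACNA1G or CACNA1H. CACNA1C, which spans 770619 bp, holds 27 loci without strand, with a median length of 324 bp, and CACNA1E, which spans 601411 bp, holds 9. The other 8 members hold 0 to 2 each. The sources used here name no strand-specific protocol, so it is not known how well reads of overlapping genes on opposite strands were told apart.

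In CACNA1C, the summed TPM of the strandless loci came to 8.72, 17.4 and 44.3 in females 1, 3 and 4, against 67.4, 11.2 and 43.6 in males 1, 4 and 5. That sum was 0.568 to 6.49 times the TPM of the gene itself. It exceeded the gene in female 4, male 1 and male 5, and 2 of these, female 4 and male 1, were the libraries with the least CACNA1C. Of the 27 loci, 9 were above 0 TPM in 1 library only and 1 was above 0 in all 6. In CACNA1E the summed strandless TPM was 2.46 to 10.3 in 5 libraries and 38.2 in male 1, where all 9 loci were above 0. The summed strandless TPM within all members came to 14.8, 27.7 and 57.3 in the females, against 119, 19.6 and 58.1 in the males (exact permutation test, p = 0.4). The part of these loci in the member levels was not tested.

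**Figure D5:**
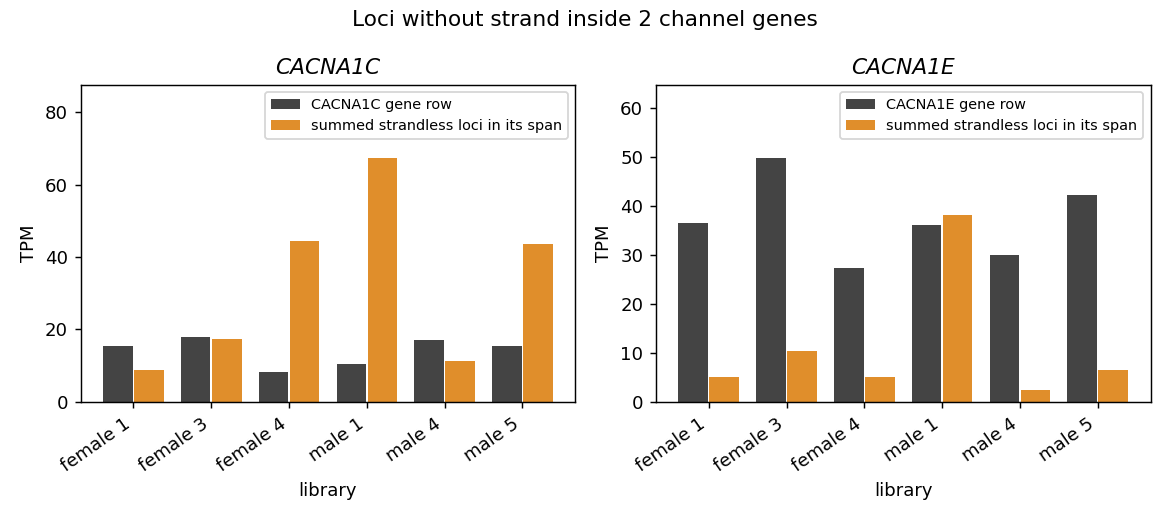
TPM (vertical axis) of the gene row (dark grey bars) and of the summed strandless loci within its span (orange bars) in the 6 libraries (horizontal axis), for CACNA1C and CACNA1E. In CACNA1C the orange bar is above the dark grey bar in female 4, male 1 and male 5, and in CACNA1E in male 1.

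Among 16 other genes of the calcium channel subunit families, 13 were listed by symbol. CACNB1, CACNA2D3 and CACNG7 were not found under those symbols. CACNB3, which encodes the β3 subunit, had 136 to 232 TPM, and CACNB4 made up 17.3% to 33.4% of the sum of CACNB3 and CACNB4. CACNB2 was at 0.0082 to 0.12 TPM. CACNA2D2, the α2δ-2 gene, had 14.3 to 25.1 TPM, under CACNA2D1 in level, and CACNA2D4 had 0 to 2.39 TPM. CACNA1S, the L-type pore of skeletal muscle, had 0.386 to 1.32 TPM, and CACNA1F, the L-type pore of the retina, was listed at 0 in every library.

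The CACNG genes encode γ subunits, several of which are known as AMPA receptor partners. CACNG3 had the highest level of these, at 167 to 229.6 TPM (mean 192 ± 21.2, SD, n = 6). CACNG8 had 77.8 to 117 TPM, CACNG4 19.8 to 46.2 TPM, CACNG2 28.2 to 42.7 TPM and CACNG5 13.4 to 29.8 TPM. CACNG1 and CACNG6 had at most 0.484 and 0.191 TPM. Of these 16 genes, 10 were tested for a sex difference, 5 with a positive and 5 with a negative difference and a median of 0.020. None passed the threshold by limma (lowest adjusted p = 0.925), and 0 had an unadjusted p under 0.05.

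Channel partners and calcium-signal genes were examined as a list of 33, of which 28 were listed and tested. Females had the higher mean log2 level for 18 and males for 10, with a median difference of 0.11. None passed the threshold by limma (lowest adjusted p = 0.925), 0 had an unadjusted p under 0.05, and the lowest unadjusted limma p was 0.0603, for the ryanodine receptor gene RYR2. CALM2, CALM3, NALCN, KCNN1 and ATP2B2 were not found under those symbols.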

How the data were processed

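Polyadenylated RNA from the PFC of 3 female and 3 male tree shrews was sequenced. According to the study's methods and the submitters' processing notes, reads were mapped with HISAT2 2.2.1 to TS_3.0. Transcripts were assembled and measured with StringTie 2.2.1 against an annotation merged over the animals, without pooling. The deposited tables hold TPM per library, FPKM and coverage (a mean depth, unscaled). The deposited FPKM served as an alternative only, and the authors' count test could not be repeated without counts. TPM keeps no depth.

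Rows of 1 gene ID and chromosome were summed, and a gene entered the fit when 3 of its libraries or more reached 0.1 TPM. Female minus male log2(TPM + 1), a scale that understates changes of weak genes, was fitted in limma (version 3.58.1, R 4.3.3), whose prior variance followed the mean. Benjamini-Hochberg adjustment was made within 27996 autosomal and 744 X-linked genes, without the X chromosome segment from 4542400 to 6144400 and chromosome 26 before 3132930, as in the study. Neighbouring levels were compared by exact two-sided sign-flip permutation, and shares by permuting the 6 animals exactly, two-sided. Python 3.11.15, pandas 2.3.3 and numpy 2.4.6 read the tables and matplotlib 3.10.9 drew them.

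The members and gene lists were chosen with earlier results of these data known. All members were named, as was every other listed channel gene. In the partner list, genes called or with an unadjusted p under 0.05 were to be named, and none qualified. RYR2 was named after its value was seen. P-values measure the spread between these animals. Alternatives were FPKM, pseudocounts of 0.1 and 0.01, quantile normalization, a limit of 1 TPM or none, scaling by median ratios, unsummed rows, stranded loci only, the replicate number as a block, no trend, joint adjustment and each library left out. The comparison by coverage was chosen after seeing the data. The fit was tested on simulated data. No sequence is printed.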

Additional observations from a re-analysis of the deposited data

Results flagged for a closer look

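Copies named after calcium channel genes with an added "li" and a number lay outside the members and carried signal. CACNB2li1 (chromosome 2, 20172577 to 20615107, minus strand) had a mean of 25.9 TPM, at 30.9, 35.7 and 4.26 TPM in females 1, 3 and 4 and 6.68, 35.4 and 42.4 TPM in males 1, 4 and 5. The gene row named CACNB2 lies within that span on the plus strand and had at most 0.12 TPM. The highest library exceeded the lowest by 9.94-fold, and female 4 and male 1 were the low libraries. CACNA1Fli1, on an unplaced contig, had a mean of 9.12 TPM, at 5.83 to 15.1 TPM in the 6 libraries, whereas the row named CACNA1F was listed at 0 in each. CACNA2D4li1 had a mean of 2.37 TPM, at 1.46 to 4.56 TPM. CACNA1Cli1, within CACNA1C on the opposite strand, was listed at 0 in each library. What these copies encode was not tested.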

How the results depend on the processing

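With each of the 18 alternatives, 0 of the 10 members passed the threshold, with limma adjusted p-values of 0.593 or more. The 2 wider lists also had 0 calls in each. The sign of CACNA1G and CACNA2D1 held under all 18, and that of the other 8 members turned under 1 to 5. CACNA1G had a log2 difference of −0.61 when male 1 was left out (limma adjusted p = 0.593, unadjusted p = 0.0177). CACNA2D1 had −0.61 when female 3 was left out (limma adjusted p = 0.952, unadjusted p = 0.0435). No other member reached an unadjusted p under 0.05. Over all tested genes, 5 passed, 1 without the trend, 3 with the replicate number as a block, and 3 to 8 with a library left out (3 without any single female or male 5, 8 without male 4). The sexes share the animal numbers 1 and 4, and deviations of same-numbered animals had correlations of 0.00098 and 0.038 across genes, which are not independent, so the numbers were not taken as a pairing. Coverage in place of TPM moved the T-type share to 65.4%, R type to 17.6%, L type to 2.51% and P/Q type to 2.08%. With a library left out, the T-type share stayed between 50.5% and 52.9%, CACNA1H stayed first and CACNA1C last, and 0 to 4 genes changed rank. Exact permutation tests of neighbours with 5 libraries cannot go below p = 0.0625, so none was called there. Without read counts, counting error stays unknown.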

Other observations

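The share of CACNA1G in T-type TPM came to 22.5%, 20.9% and 15.3% in females 1, 3 and 4, against 23.9%, 22.8% and 23.0% in males 1, 4 and 5, so the sexes did not overlap (exact permutation test, p = 0.1, the smallest possible, adjusted p = 0.99 over the 11 sums and ratios examined). The other 10 had exact permutation p-values of 0.4 or more.

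The ratio of TPM to coverage, relative to that of loci without strand, was 1.10 in each library for CACNA1E and 2.16 in each for CACNA2D1. For CACNA1D it ran from 3.81 to 6.93 and for CACNA1A from 11.5 to 16.2.

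In level over the 6 libraries, the named genes nearest to CACNA1H were TCF25, SHC2 and DLK2, with root mean square differences of 0.26, 0.27 and 0.28 in log2(TPM + 1).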
